A study of Mus musculus with 2 samples.

Results

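Intracellular lipolysis, the breakdown of stored triglyceride inside fat cells, was followed through 5 genes: the lipases Pnpla2, Lipe and Mgll, the lipase activator Abhd5 and the lipase inhibitor G0s2. The members were chosen by gene name, and every probe that carried one of these names was taken. This gave 10 probes of 41174 on the array, and 5 of 27962 gene names. The RNA came from 3T3-L1, an established mouse preadipocyte line that fills with lipid droplets after hormonal induction, and from the microvesicles that these cells release (adipocyte-derived microvesicles, ADMs). All cultures were grown in high-glucose DMEM with 10% FCS and were induced with insulin at 10 µg/ml, dexamethasone at 0.25 µM and IBMX at 0.5 mM. On day 11 after induction ultracentrifugation of the conditioned medium gave the ADM pellet, the donor adipocytes were harvested, and Trizol RNA of both (250 ng each, with spike-in transcripts) was amplified and labelled. The labels describe 2 biological replicates, each an ADM RNA and a donor cell RNA on the same 2-colour array. The ADM RNA carried Cy5 in replicate 1 and Cy3 in replicate 2. Directions follow these dye labels, so the text speaks of ADM-labelled and cell-labelled RNA; an exchange of the RNAs before labelling, alike for both replicates, would reverse all of them. An ultracentrifuge pellet can hold any particle or RNA that sediments with the vesicles, and all cells belong to 1 line.

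Triglyceride is taken apart in order. Adipose triglyceride lipase (ATGL, encoded by Pnpla2) removes the first fatty acid, hormone-sensitive lipase (HSL, encoded by Lipe) cleaves the diglyceride that is left, and monoglyceride lipase (encoded by Mgll) releases the last fatty acid and glycerol. ABHD5, also called CGI-58, binds ATGL and raises its activity, and it is held at the droplet by perilipin 1 until protein kinase A phosphorylates the coat, while G0S2 binds ATGL and blocks it. In adipocytes these proteins set how much fatty acid leaves the cell between meals.

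The ADM-labelled RNA was brighter than the cell-labelled RNA on both arrays, whichever dye it carried. The net signal, the mean spot intensity less the local background, was a median of 38.8-fold higher in the ADM-labelled RNA over the 18117 probes tested in replicate 1 and 7.68-fold higher in replicate 2. Precision is limited by there being 2 arrays. Net folds are therefore given as measured. The test was run on log2 ratios after loess, which takes away a fitted trend of the ratio with signal. A ratio of 0 lies on that loess curve. At the bright end the curve lay above the running median of spots of like signal. At Plin1 in replicate 1 it stood at 7.98 against 5.92. Ratios after loess had a Pearson correlation of 0.926 and a Spearman correlation of 0.812 between the arrays, across the tested probes, which share arrays and dyes and are not independent. Adipocyte markers were well above background on both arrays for 10 of 10 genes in the ADM-labelled RNA and for 9 of 10 in the cell-labelled RNA, where leptin (Lep) was not. Their summed net signal was 2146310 and 1070250 in the ADM-labelled RNA and 7899 and 64319 in the cell-labelled RNA. These sums include spots with an outlier flag, among them those of Adipoq and Cfd in replicate 1 and of Cidec on both arrays. Of the preadipocyte and fibroblast markers, 6 of 6 were above background in the ADM-labelled RNA and 4 of 6 in the cell-labelled RNA, with Pdgfra and Cd34 not above it. Their summed net signal was 147340 and 57939 against 538 and 1858. The 4 endothelial markers and the 2 measured liver markers were not above background in either RNA. Of 5 macrophage markers only Cd68 was, in the ADM-labelled RNA, and of 4 muscle markers only Des was, in both. The part of undifferentiated cells in the results was not tested, and in bulk RNA fewer cells of a type and less RNA per cell cannot be told apart.

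Transcripts of all 5 lipolysis genes were detected in both RNAs. In the ADM-labelled RNA 9 of the 10 probes were well above background on both arrays, against 45.8% of all probes, and in the cell-labelled RNA 8 were, against 23.8%. The remaining Abhd5 probe near the 3′ end was above background in the cell-labelled RNA of replicate 2 alone, and 1 Mgll probe was above it in neither RNA. The filter on dim probes and on spot quality left 8 probes for the test, with at least 1 for each gene. After loess, 1 of the 8 was higher in the ADM-labelled RNA (Lipe) and 1 was lower (Pnpla2) at a limma adjusted p of 0.05. Over all tested probes 5.53% were called higher and 10.9% lower, 16.4% in all. The share called among the members is thus near that of the array. Of the 8 probes, 6 had a ratio above 0 on both arrays, against 46.8% of all tested probes, and 2 were below 0 on both, and the median ratio was 0.30 against 0.07 for all tested probes. Probes of 1 gene report on the same transcripts and are not replicates of a condition.

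**Figure D1:**
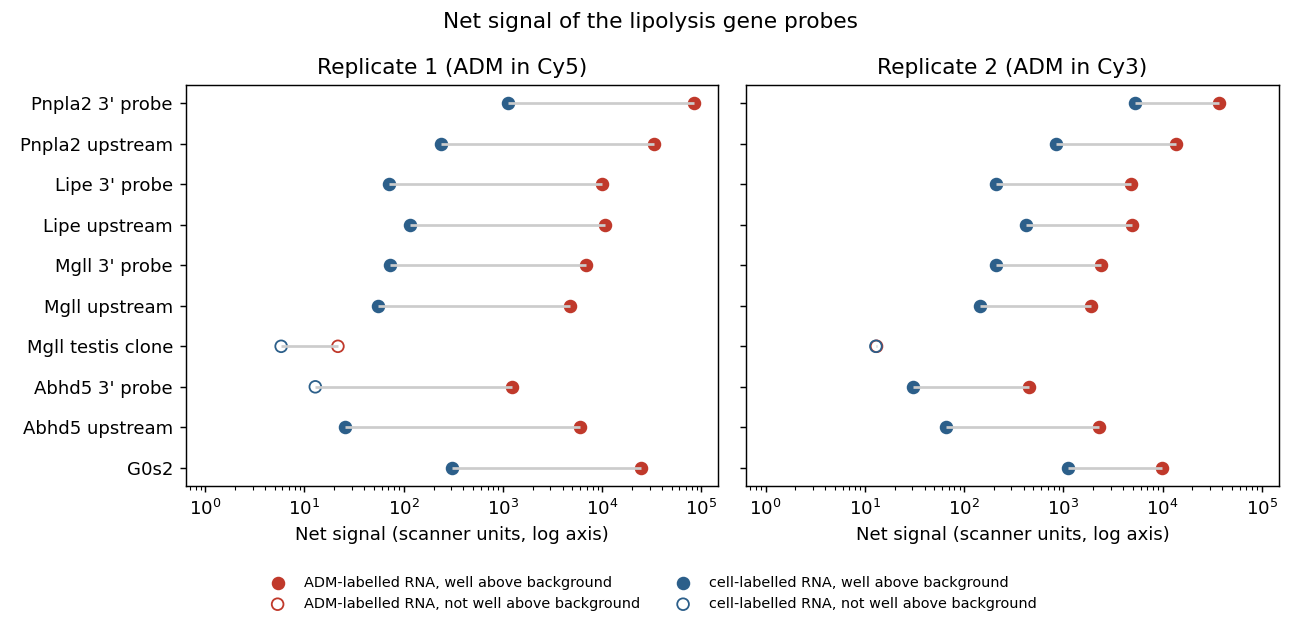
Net signal (spot intensity less local background, scanner units, log axis) of each of the 10 probes in the ADM-labelled and the cell-labelled RNA, for replicate 1 and replicate 2, with open circles for probes not well above background. Each point is 1 probe on 1 array; the ADM-labelled signal lies 7.0-fold or more above the cell-labelled signal wherever both were above background.

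Pnpla2 was the brightest member. Its probe near the 3′ end lies at chr7:137877295-137877354 on the plus strand (coordinates of mouse build mm7, as deposited; no annotation of that build was used here, so exon and UTR positions are not given). It gave net signals of 84646 and 36993 in the ADM-labelled RNA of replicates 1 and 2 and of 1124 and 5285 in the cell-labelled RNA. The ADM-labelled RNA was brighter on both arrays, with net folds of 75.3 and 7.0. These folds stood at percentiles 76.0 and 45.5 of the tested probes, so the raw excess at the 3′ probe of Pnpla2 was within the bulk of the array. After loess its ratio was -1.50 and -0.84, a mean of -1.17 ± 0.47 (SD, n = 2). This is 2.25-fold below the loess curve at its signal (limma adjusted p = 0.0385, 95% interval -1.73 to -0.61). The curve itself lay above the running median of spots of like signal on both arrays, as given below.

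The second Pnpla2 probe, 830 bases upstream at chr7:137876465-137876524, did not lie below the loess curve. Its net signals were 33632 and 13589 in the ADM-labelled RNA and 235 and 846 in the cell-labelled RNA. The net folds of 143 and 16.1 were both above those of the 3′ probe. Its ratio after loess was 0.23 and 0.59, a mean of 0.41 ± 0.26 (SD, n = 2), which did not pass the test (limma adjusted p = 0.129, 95% interval 0.02 to 0.81 before adjustment). Against the loess curve the probes of the gene for the first lipase of the pathway thus gave opposite signs on both arrays.

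The low value of the 3′ probe changed with the processing. With loess kept, its call was lost with a normexp offset of 10 (-0.55, limma adjusted p = 0.0781) and with a variance trend on signal (limma adjusted p = 0.166). At its signal the curve stood at 7.67 in replicate 1 and 3.63 in replicate 2, while the running median of the spots of nearest signal, an alternative chosen after seeing the data, stood at 6.04 and 3.16. Against the running median the 3′ probe was at 0.13 and -0.36, a mean of -0.12 ± 0.35 (SD, n = 2), and was no longer called (limma adjusted p = 0.636). The upstream probe was then at 0.65 and 0.88, a mean of 0.76 ± 0.16 (SD, n = 2), and passed the test (limma adjusted p = 0.0171). In the scanner's own log ratio the 3′ probe was at -0.03 and -0.08 (limma adjusted p = 0.849), and the upstream probe at 0.71 and 0.70 (limma adjusted p = 0.0851). The median of all tested probes was 0.69 there, so relative to it the 3′ probe stood at -0.74 and the upstream probe at 0.01. The order of the Pnpla2 probes was the same in all of these, and the direction against the array as a whole was not. With median centring, which keeps the trend with signal and the normexp offset, the 3′ probe stood at 4.16. That is 2.11 above the median of all tested probes, and the median itself was 2.04. By net fold, which carries no offset, the 3′ probe stood at percentiles 76.0 and 45.5, below the middle of the tested probes in replicate 2.

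**Figure D2:**
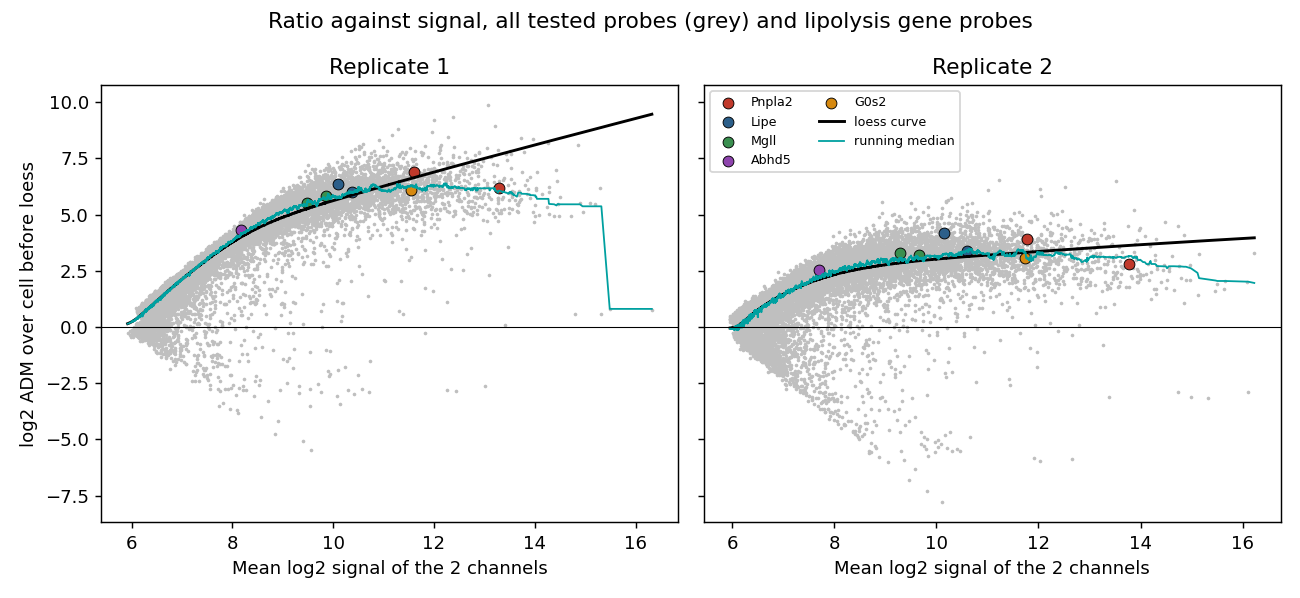
Log2 ratio of ADM-labelled over cell-labelled RNA before loess against the mean log2 signal of the channels, for all 18117 tested probes (grey) and the lipolysis gene probes (colours), with the loess curve (black) and the running median (teal), for each replicate. At the bright end the black curve lies above the teal one, by 7.67 against 6.04 at the 3′ probe of Pnpla2 in replicate 1; at the upstream probe of Pnpla2 the curves stand at 6.64 and 6.23 in the same replicate.

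Lipe, which encodes the lipase that hormones switch on through protein kinase A, held the other call. Its 3′ probe at chr7:22170615-22170674 on the minus strand gave net signals of 9864 and 4757 in the ADM-labelled RNA and of 70.5 and 212 in the cell-labelled RNA. The ADM-labelled RNA was 140-fold and 22.4-fold brighter, at percentiles 94.8 and 94.1 of the tested probes. After loess the ratio was 0.66 and 1.11, a mean of 0.89 ± 0.32 (SD, n = 2). This is 1.85-fold above the loess curve at its signal (limma adjusted p = 0.041, 95% interval 0.44 to 1.33). Both arrays had the same sign. The call held with the running median (0.75, limma adjusted p = 0.0228) and in the scanner's log ratio (1.08, limma adjusted p = 0.0452; 0.39 above the median of all tested probes, which was 0.69 there), and it was lost where spots with an outlying local background were kept (0.54, limma adjusted p = 0.547), a setting in which no probe of the array passed the test and 677 had an unadjusted p under 0.05.

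The second Lipe probe begins 146 bases upstream and spans 2254 bases of the genome (chr7:22170761-22173014) for 60 bases of probe, so its sequence joins stretches on both sides of an intron. It gave net signals of 10632 and 4920 in the ADM-labelled RNA and of 115 and 422.5 in the cell-labelled RNA. The ADM-labelled signals were close to those of the 3′ probe, while the cell-labelled signals were higher on both arrays. The net folds were 92.6 and 11.6, and the ratio after loess was 0.14 and 0.24, a mean of 0.19 ± 0.08 (SD, n = 2), which did not pass the test (limma adjusted p = 0.292, 95% interval -0.12 to 0.50).

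Mgll, the gene of the last lipase, gave like values from both of its detected probes. The 3′ probe at chr6:88903385-88903444 on the plus strand had net signals of 6918 and 2415 in the ADM-labelled RNA and of 73.4 and 211 in the cell-labelled RNA. The ratio after loess was 0.28 and 0.26, a mean of 0.27 ± 0.01 (SD, n = 2; limma adjusted p = 0.172, 95% interval -0.04 to 0.57). The second probe, 2667 bases upstream and spanning 2304 bases (chr6:88898474-88900777), had net signals of 4757 and 1888 in the ADM-labelled RNA and of 55.4 and 145 in the cell-labelled RNA. Its ratio was 0.23 and 0.42, a mean of 0.33 ± 0.13 (SD, n = 2; limma adjusted p = 0.143). Neither Mgll probe passed the test, and with the running median both moved closer to 0, to 0.15 and 0.07. The third probe named Mgll, made from a testis cDNA clone and lying 61703 bases upstream at chr6:88841682-88841741, had net signals of 21.7 and 13.1 in the ADM-labelled RNA and of 5.83 and 12.9 in the cell-labelled RNA. It was not well above background in either RNA, so no fold is given.

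Abhd5, the activator of ATGL, was the dimmest member by its 3′ probe (chr9:122088651-122088710, plus strand). Net signals there were 1228 and 452 in the ADM-labelled RNA and 12.9 and 30.2 in the cell-labelled RNA, the last of which was the only one of the cell-labelled pair above background. The ratio after loess was 0.33 and 0.42, a mean of 0.38 ± 0.06 (SD, n = 2), and did not pass the test (limma adjusted p = 0.0981, 95% interval 0.07 to 0.68 before adjustment). In the scanner's log ratio it was 1.46 and 0.91 and passed (limma adjusted p = 0.0482), with a mean 0.50 above the median of all tested probes. The upstream probe, 12783 bases away at chr9:122075868-122075927, was brighter, with net signals of 5938 and 2312 in the ADM-labelled RNA and of 25.5 and 65.5 in the cell-labelled RNA. Its net folds of 233 and 35.3 stood at percentiles 98.8 and 98.2 of the tested probes, the first from a spot with a flagged background. The local background of its spot in replicate 1 carried the scanner's outlier flag, so the upstream Abhd5 probe had a ratio after loess in replicate 2 only, 1.49, and was not tested. With such spots kept its mean ratio was 0.42 (limma adjusted p = 0.547).

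G0s2, the inhibitor of ATGL, had 1 probe, at chr1:192825383-192825442 on the minus strand. Its net signals were 24828 and 9879.5 in the ADM-labelled RNA and 308 and 1112 in the cell-labelled RNA. The ADM-labelled RNA was 80.7-fold and 8.88-fold brighter, near the middle of the tested probes on replicate 2 (percentile 57.6) and above it on replicate 1 (percentile 79.2). The ratio after loess was -0.49 and -0.23, a mean of -0.36 ± 0.19 (SD, n = 2), below 0 on both arrays but short of the test (limma adjusted p = 0.136, 95% interval -0.72 to -0.01 before adjustment). With the running median it was -0.19 (limma adjusted p = 0.338), and in the scanner's log ratio -0.08 on both arrays, which is -0.77 relative to the median of all tested probes. With median centring it was 4.28, which is 2.23 above the median of all tested probes, so its direction depends on whether the trend with signal is removed.

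**Figure D3:**
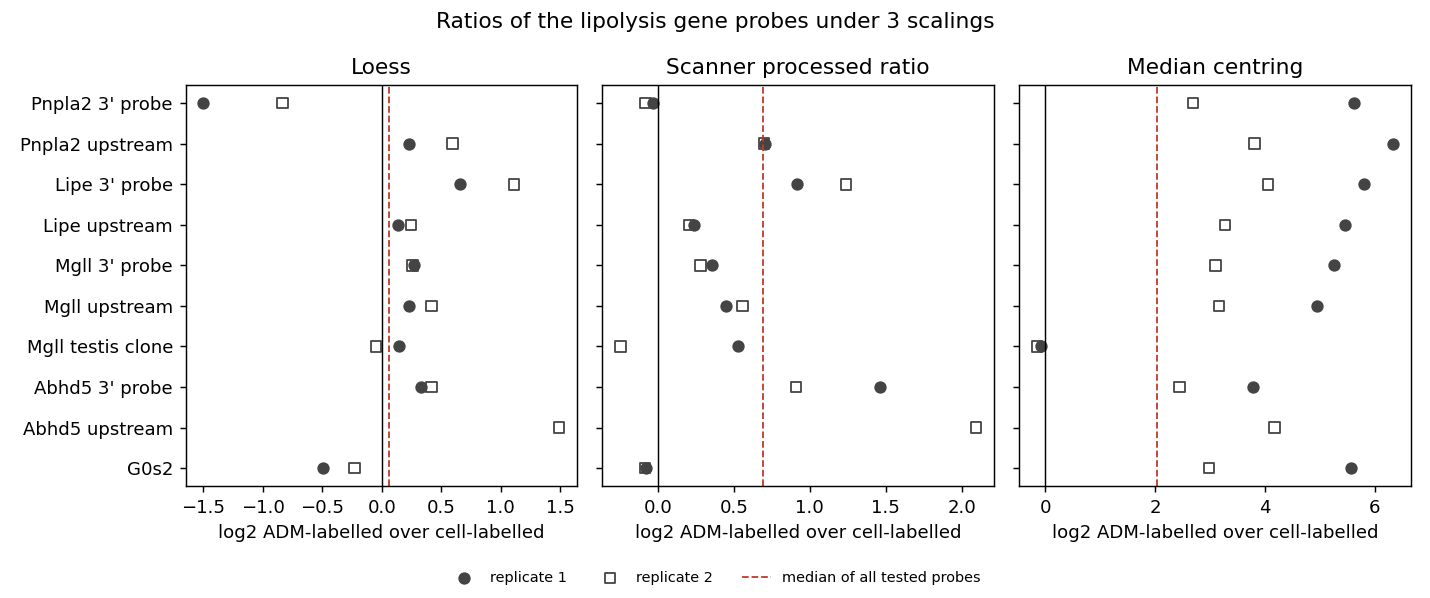
Log2 ratio of ADM-labelled over cell-labelled RNA of each lipolysis probe under 3 scalings (loess, the scanner's processed ratio and median centring), with filled circles for replicate 1, open squares for replicate 2 and the median of all tested probes as a dashed line at 0.07, 0.69 and 2.04. After loess the 3′ probe of Lipe lies at 0.66 and 1.11 and the 3′ probe of Pnpla2 at -1.50 and -0.84; with median centring all probes but the Mgll testis clone lie above 0 and above the dashed line, Pnpla2 and G0s2 included.

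By the mean ratio after loess the tested probes ran from the 3′ probe of Pnpla2 (-1.17) through G0s2 (-0.36), the upstream probe of Lipe (0.19), the probes of Mgll (0.27 and 0.33), the 3′ probe of Abhd5 (0.38) and the upstream probe of Pnpla2 (0.41) to the 3′ probe of Lipe (0.89). From the upstream Mgll probe to the upstream Pnpla2 probe the neighbours in this order differed by less than the larger of their SDs; differences between probes were not tested. The activator and the inhibitor of ATGL lay on opposite sides of 0 on both arrays, and neither was called. This order is that of ratios against the loess curve and says nothing of the amounts of the transcripts relative to each other. With the running median both ends changed. G0s2 (-0.19) then lay below the 3′ probe of Pnpla2 (-0.12), and the upstream probe of Pnpla2 (0.76) lay just above the 3′ probe of Lipe (0.75).

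Upstream and 3′ probes of the same gene can be set side by side as folds, since each fold compares the RNAs at 1 probe. For Pnpla2 the net fold was larger upstream, by 1.90 times in replicate 1 and 2.30 times in replicate 2. For Abhd5 it was also larger upstream in replicate 2, by 2.36 times. No Abhd5 pair is set side by side in replicate 1, where the cell-labelled signal of the 3′ probe was not above background and the upstream spot carried the outlier flag. For Lipe it was the reverse, with the 3′ probe larger by 1.51 and 1.93 times. The Mgll probes differed by -0.14 and 0.18 on the log2 scale, with no common sign. In the scanner's log ratio the upstream probe of Pnpla2 lay above the 3′ probe by 0.74 and 0.78, and the upstream minus 3′ difference of Lipe was -0.68 and -1.03. The probes thus ranked the same way on both arrays for Pnpla2, with the upstream fold larger, and for Lipe, with the 3′ fold larger. These differences have no test, and the part of probe brightness, hybridization and transcript ends in them was not tested.

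**Figure D4:**
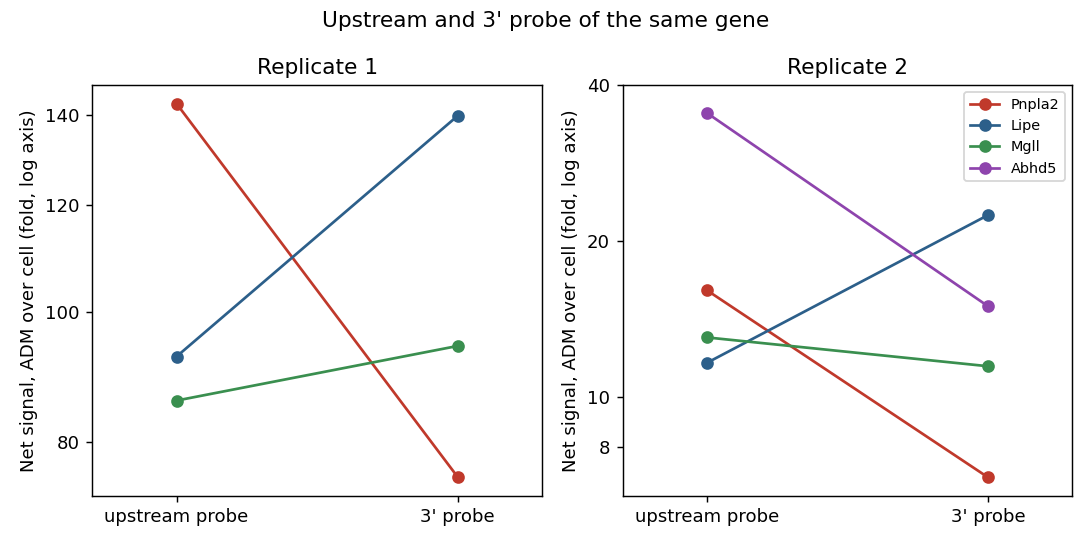
Net fold (ADM-labelled over cell-labelled, log axis) at the upstream and the 3′ probe of Pnpla2, Lipe, Mgll and Abhd5, with 1 panel per replicate and a line joining the probes of a gene. The line of Pnpla2 (143 to 75.3 and 16.1 to 7.0) falls towards the 3′ probe on both arrays, that of Lipe rises (92.6 to 140 and 11.6 to 22.4), that of Mgll has opposite slopes on the arrays, and Abhd5 (35.3 to 15) is drawn for replicate 2 alone.

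The wider lipolysis pathway was described with 34 other genes, of which 27 had a tested probe. Each of these 27 is given by its brightest tested probe, and each of the rest by its brightest probe. After loess 8 were higher in the ADM-labelled RNA, 4 were lower and 15 were not called, with a median of 0.32 against 0.07 for all tested probes and the background shares of 5.53% and 10.9% given above. Values below are means of the log2 ratio after loess ± SD of 2 arrays, with limma adjusted p, and no call of this wider list was kept where spots with an outlying local background were kept.

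Receptors and cAMP signalling, the arm through which adrenaline starts lipolysis, had 1 higher and no lower gene among 6 tested. Gnas, the stimulatory G protein subunit, was higher at 0.75 ± 0.05 (adjusted p = 0.0301), and in the scanner's log ratio it was no longer called (0.87, adjusted p = 0.073). The β-adrenergic receptor genes Adrb1 and Adrb3, the kinase subunit gene Prkacb and the phosphodiesterase gene Pde3b were not well above background in the cell-labelled RNA on either array. Prkaca, the catalytic subunit of protein kinase A that phosphorylates HSL and perilipin 1, had net signals of 35055 and 14087 in the ADM-labelled RNA and of 280 and 999 in the cell-labelled RNA. Its spot in replicate 2 was left out for its outlier flag, so it was not tested.

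The droplet coat genes, whose proteins gate the access of the lipases to the droplet, had 2 lower and no higher gene among 4 tested, of which Plin1 and Plin2 lay above 0 with the running median. With median centring Plin1 lay 2.15 above the median of all tested probes and Cidea stood at -0.56 relative to it. By net fold, which carries no offset, Plin1 stood at percentiles 80.1 and 42.6 of the tested probes. Plin1, which encodes the perilipin that holds ABHD5, was lower at -1.33 ± 0.47 (adjusted p = 0.0308), and Cidea, a droplet fusion protein, at -0.71 ± 0.12 (adjusted p = 0.035). Plin1 was bright (net 128314 and 52148 in the ADM-labelled RNA) and, like the 3′ probe of Pnpla2, changed with the processing. Its running-median value was 0.19 (adjusted p = 0.413). Its call was also lost in the scanner's log ratio (-0.02, or -0.71 relative to the median of all tested probes, adjusted p = 0.947). The same held with a normexp offset of 10 (adjusted p = 0.0726) and with a variance trend (adjusted p = 0.233). Cidea, which was dim, stayed lower with the running median at -0.71 (adjusted p = 0.0177). It was also called lower in the scanner's log ratio (-1.42, adjusted p = 0.0278) and with an offset of 10 (-1.24, adjusted p = 0.0143). With a variance trend its call held (adjusted p = 0.0227), and with median centring it was not called (adjusted p = 0.0555). The coat genes Plin4 and Cidec, named after their values were seen, were not tested because of outlier flags, on replicate 1 for Plin4 and on both arrays for Cidec. Plin4 had net signals of 180883 and 77054 in the ADM-labelled RNA against 799.5 and 3416 in the cell-labelled RNA, and its ratio after loess in replicate 2 was 0.81. Cidec had net signals of 462588 and 236553 against 1337 and 10189. The net folds of Plin4 (226 and 22.6) and Cidec (346 and 23.2) were high among the tested probes, at percentiles 98.7 and 94.2 for Plin4 and 99.7 and 94.7 for Cidec.

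The genes around delivery and turnover of ATGL were tested in full, with 4 of 7 higher and none lower. Arf1 (0.94 ± 0.15, adjusted p = 0.0249) and Copb1 (0.95 ± 0.22, adjusted p = 0.0288) belong to the coat machinery that carries ATGL to droplets. Vcp, the ATPase that extracts proteins for degradation, stood at 0.89 ± 0.32 (adjusted p = 0.0398), and Pnpla3, a close relative of ATGL, at 1.39 ± 0.26 (adjusted p = 0.0183). A second Copb1 probe gave 0.19, so the probes of that gene differ. Faf2, which recruits VCP to droplets, was not well above background in the cell-labelled RNA on either array. Its mean of 0.72 ± 0.37 did not pass (adjusted p = 0.0668). In the scanner's log ratio (2.68, adjusted p = 0.021), after scale normalization, with an offset of 10 and with a variance trend Faf2 passed. Another tested Faf2 probe gave 0.49 after loess. Hilpda, an inhibitor of ATGL that responds to hypoxia, was at 0.38 ± 0.09 and did not pass (adjusted p = 0.102), and Gbf1, the exchange factor for Arf1, was at -0.03 ± 0.21.

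Among the genes that take up the products of lipolysis, 2 of 6 were higher and 1 was lower. Acsl1, which turns fatty acids into acyl-CoA, had net signals of 265951 and 111380 in the ADM-labelled RNA against 230 and 1172 in the cell-labelled RNA, and stood at 2.62 ± 0.41 (adjusted p = 0.00902). Dgat1, which re-esterifies fatty acids to triglyceride, was higher at 1.33 ± 0.01 (adjusted p = 0.013). Dgat2, which does the same by another protein, was at 0.50 ± 0.31 and did not pass (adjusted p = 0.108). A further tested probe gave 1.73 for Dgat1 and 0.81 for Dgat2. Fabp4, the fatty acid carrier that binds HSL, was lower at -0.59 ± 0.13 (adjusted p = 0.0485). Fabp4 was the brightest of these (net 492342 and 239808 in the ADM-labelled RNA) and its direction turned with the running median, to 1.99 (adjusted p = 0.0122), and in the scanner's log ratio, to 1.49, which is 0.80 above the median of all tested probes there. Its call was also lost with a variance trend (adjusted p = 0.844), with robust moderation (adjusted p = 0.051) and with 1 probe per gene (adjusted p = 0.0504). Dgat2 passed with the running median (0.76, adjusted p = 0.0139) and with an offset of 10 (0.74, adjusted p = 0.0443).

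Of the other lipases of neutral lipid, Ces1d, a carboxylesterase with triglyceride hydrolase activity, was higher at 1.27 ± 0.10 (adjusted p = 0.0147). Lpl, the lipoprotein lipase that acts outside the cell, was lower at -2.75 ± 0.90 (adjusted p = 0.0236). With the running median Lpl stood at -0.79 and stayed lower (adjusted p = 0.0306), while with a variance trend its call was lost (adjusted p = 0.115). With median centring, which keeps the normexp offset, it stood at 2.97, which is 0.92 above the median of all tested probes. Its net folds, which carry no offset, were 31.1 and 3.12, at percentiles 43.7 and 20.8 of the tested probes. By net fold Lpl thus lay below the middle of the tested probes on both arrays. The lysosomal lipase Lipa (0.67 ± 0.27, adjusted p = 0.0557) and the monoglyceride lipase Abhd6 (0.25 ± 0.07, adjusted p = 0.196) were not called.

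**Figure D5:**
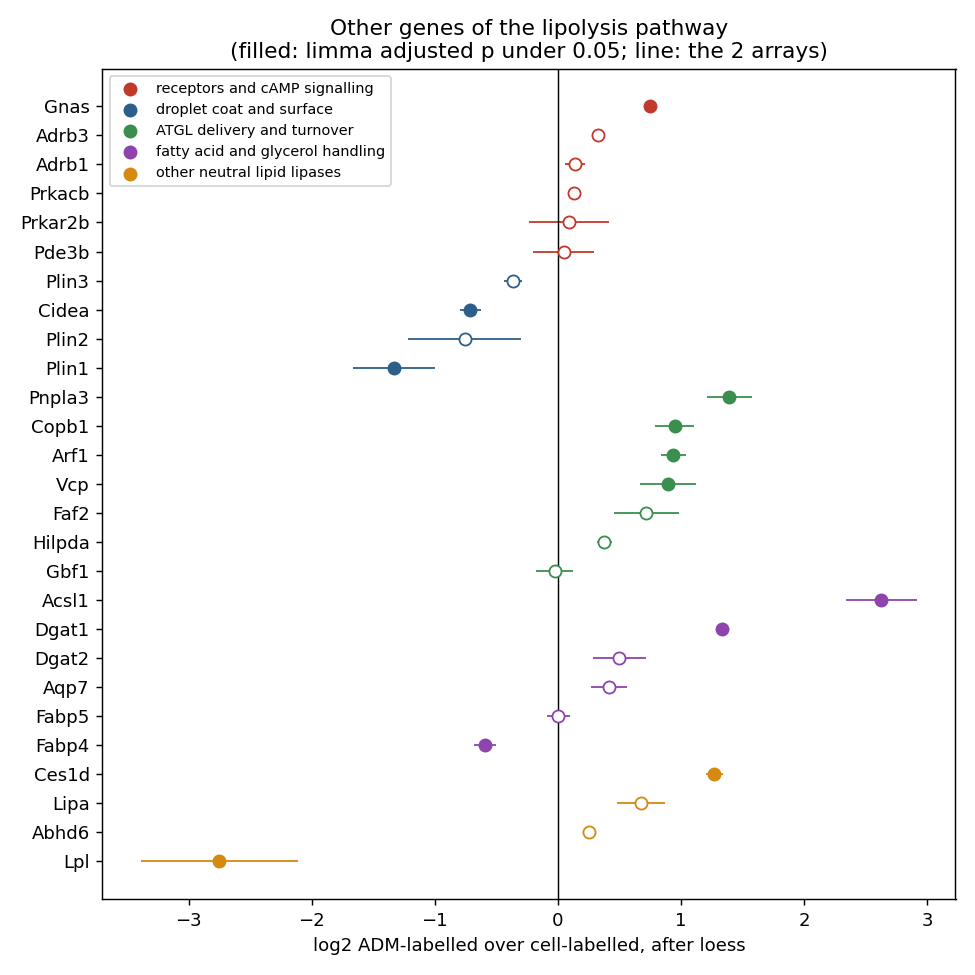
Log2 ratio of ADM-labelled over cell-labelled RNA after loess for the 27 tested genes of the wider pathway, by role; points are means, lines join the 2 arrays, and filled points passed limma at an adjusted p of 0.05. Acsl1 (2.62) and Lpl (-2.75) mark the ends; the ATGL delivery genes lie at or above -0.03, and the 4 droplet coat genes lie below 0, of which Plin1 (0.19) and Plin2 (0.43) lie above 0 with the running median.

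The probes whose ratios after loess lay nearest to each member, by Euclidean distance over the 2 arrays and for the member's brightest tested probe, were Tubb5 and Gng5 for Pnpla2, Klhl15 and Zfp386 for Lipe, Prss27 and Tubgcp3 for Mgll, Fbxw2 and Rtraf for Abhd5, and Elf2 and Elf1 for G0s2. With only 2 arrays many probes lie close to a member. Within a distance of 0.1 there were 4 probes for Pnpla2, 63 for G0s2, 455 for Abhd5, 727 for Mgll and 1066 for Lipe.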

How the data were processed

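Each of 2 two-channel Agilent mouse arrays compared ADM RNA with donor adipocyte RNA. Per the file headers, Feature Extraction 10.5.1.1 read spot and background intensities, deposited without normalization, with an annotation of mouse build mm7. The deposited log10 ratio of Cy5 over Cy3 was background-subtracted and dye-normalized by the same software, per the file headers. A series table, also deposited, repeats this log10 ratio, with the sign of replicate 2 turned. The deposited outlier and background flags were used as given. No gene spot was saturated.

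Spots with an outlier flag of their own or of their local background were left out of the ratios (2322 and 1711 gene spots). Net signals, net folds and counts above background used every gene spot, flagged or not. Background was corrected by normexp (offset 50), ratios were normalized by loess (span 0.3, control spots at weight 0) and turned to ADM over cell, and spots of a probe were averaged. Probes that both arrays flagged well above background in the same RNA, and that had both values, were tested against 0 in limma 3.58.1 (R 4.3.3), with Benjamini-Hochberg adjustment over 18117 probes. The fit had 1 residual degree of freedom and 2.91 prior degrees of freedom. The p-values rest on the spread between these arrays, moderated towards that of all tested probes. The arrays differ in replicate and in dye order, so these parts of the spread cannot be told apart. A ± value is the SD of 2 arrays. The normexp offset pulls dim ratios towards 0. Loess takes probes of like signal to be equal between the RNAs on average, so ratios describe make-up and not amount.

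Symbols came from the files, updated through a RefSeq table of assembly GRCm38.p6, which named 22951 probes. The named genes were the members with every probe, and pathway genes that passed the test or act directly with the members. Other pathway genes were named outside that rule, among them Gbf1, Lipa, Abhd6, Plin2, Plin4 and Cidec. Members, lists and the flag rule were chosen with earlier results of these data known. The method was run on simulated data with planted changes. The simulation took the loess curve as the true trend, so it could not show a misfit of that curve. Alternatives were the normalization, offset, flags, filter, moderation, probes per gene and each replicate left out. No sequences are printed.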

Additional observations from a re-analysis of the deposited data

How the results depend on the processing

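Of all probes, 1001 were called higher and 1971 lower in the main setting, 33.7% of the calls being higher. The counts were 10773 and 265 with median centring (97.6% higher), 5798 higher in both the scanner's log ratio and the deposited series table (2574 lower, 69.2% higher), 1836 and 2959 with scale normalization, 1867 and 3063 with offset 10, 1711 higher with trended moderation, and 0 and 0 with outlying local background kept, where limma gave 677 probes at an unadjusted p under 0.05. With median centring the prior degrees of freedom were infinite, so its p-values do not reflect a probe's own spread. Of the members, 8 probes were higher with median centring, 2 in the scanner's ratio, the series table and the running median (chosen after seeing the data), and 0 with outlying background kept or 1 probe per gene, which leaves out the 3′ Lipe probe. The lower Pnpla2 call went to 0 with median centring, the scanner's ratio, the series table, offset 10, outlying background kept, trended moderation and the running median. Values below 0 after loess and above 0 with median centring, where the median of all tested probes was 2.04, were Pnpla2 3′ (4.16), G0s2 (4.28), Plin1 (4.19), Cidea (1.48), Fabp4 (5.37) and Lpl (2.97). Of these Cidea alone lay below that median (-0.56 relative to it). By net fold, which carries no offset, Lpl (percentiles 43.7 and 20.8) and Cidea (27.2 and 19.85) stood below the middle of the tested probes on both arrays. Pnpla2 3′ (45.5) and Plin1 (42.6) did so in replicate 2 only. Fabp4 was also above 0 in the scanner's ratio and the series table (1.49 in each), with offset 10 (0.55) and with the running median (1.99), as was Plin1 with the running median (0.19). The cause was not tested. The test is paired by construction, since each array holds both RNAs of a replicate, and with 1 array left out no test remains; each array's values stand in the report.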
